A study of Mus musculus with 79 samples.

Results

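Collagen genes were followed in 2 brain regions of mice that had been exposed to social stress and ketamine. The 44 genes were those of the 55471 in the count table whose GENCODE symbol is Col, a number, a and a number, so all chains of the family that carry such a symbol were taken and related proteins with a collagen domain were not. By structure they comprised 11 chains of fibrillar collagens, 8 of basement membranes, 7 of beaded filaments, 4 of networks and anchoring fibrils, 9 of collagens associated with fibrils (FACIT), 4 transmembrane chains and 1 other, Col26a1. Bulk RNA sequencing had been done on punches of the medial prefrontal cortex (mPFC) and the ventral hippocampus (vHipp) of 40 male CD-1 mice, an outbred stock. Mice of 2 groups had gone through chronic social defeat stress (CSDS) for 21 days, and those of the other 2 groups were undefeated controls (CTRL). Each mouse received a single i.p. injection of saline or of ketamine at 10 mg/kg, and tissue was taken 7 days after it. The groups were therefore CTRL saline, CTRL ketamine, CSDS saline and CSDS ketamine, with 10 libraries per group and region, apart from 9 in the mPFC of CSDS ketamine mice. All were adult, group-housed wild-type males, and dominant and subordinate animals were mixed within groups, since the labels used here give neither rank nor housing group. Both regions came from the same animals in 39 of the 40 mice. A punch of 200 µm slices holds all cells of the site, with vessels and any pia it touches, so a lower value can mean fewer cells of a type or less RNA per cell and these cannot be told apart.

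Collagens are secreted or membrane-bound proteins whose chains wind into a triple helix. In the brain little fibrillar collagen lies in the parenchyma: types I and III are made mainly by fibroblasts of the meninges and around larger vessels, and type IV forms the basement membranes under the pia and the endothelium, while a few chains are made by neurons. The latter include Col19a1, which interneurons secrete and which takes part in the formation of inhibitory synapses, and Col25a1, a transmembrane chain of neurons that was first found in amyloid plaques.

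Libraries held between 11726129 and 41767119 counted reads, with a median of 19638100. No pair of libraries held identical counts. All 5 neocortical markers were higher in the mPFC, and their summed level ran from 325 to 462 CPM (reads scaled to library size) there and from 79.5 to 135.98 CPM in the vHipp. Of 5 hippocampal markers 4 were higher in the vHipp and Wfs1 was higher in the mPFC. A set of 5 libraries stood apart. The mPFC library of mouse 30 (CTRL saline) had the highest summed level of 15 meningeal fibroblast markers, 395 CPM against a median of 119.4 CPM, and of 6 border macrophage markers, 41.7 CPM against 13.0 CPM. The mPFC library of mouse 26 (CTRL ketamine) had one of the lowest meningeal sums, 51.6 CPM, and the highest interneuron sum, 1028.98 CPM. Among vHipp libraries, that of mouse 9 (CSDS saline) held 724 CPM of 11 choroid plexus markers against a median of 26.8 CPM, that of mouse 11 (CSDS ketamine) had the highest endothelial and mural sums, 490 and 478 CPM, and that of mouse 4 (CSDS saline) the highest sum of 5 blood genes, 275 CPM.

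Compared per kilobase of exon, so that genes of different length can be set side by side, collagen RNA in both regions was led by type VI and type IV chains (the plot of levels by region). In the mPFC the first was Col6a1, a chain of the beaded filaments that surround cells, with 13.4 ± 3.41 CPM per kb (SD, n = 39). Col4a2 followed with 10.2 ± 1.19, Col4a1 with 6.91 ± 0.792, Col5a1 with 6.59 ± 2.2003, Col25a1 with 4.92 ± 0.790 and Col19a1 with 4.38 ± 0.407 CPM per kb. By the larger SD of each pair, all neighbours in this order lay within 1 SD of each other except Col4a2 and Col4a1. The SD is a spread over libraries, and the order of the genes within libraries was not tested. In the vHipp the order was Col4a2 with 15.7 ± 2.31, Col6a1 with 13.2 ± 6.87, Col25a1 with 12.3 ± 1.56, Col4a1 with 10.1 ± 1.09, Col19a1 with 6.37 ± 1.72 and Col11a2 with 5.64 ± 1.73 CPM per kb (SD, n = 40). Col6a1 spread so widely there that Col4a2 and Col25a1, its neighbours in the order, lay within 1 SD of it, and Col19a1 and Col11a2 lay as near to each other. The chains of type I collagen stood lower on this scale, with 1.70 ± 0.949 (Col1a1) and 1.53 ± 0.783 (Col1a2) CPM per kb in the mPFC and 1.11 ± 0.296 and 0.454 ± 0.191 in the vHipp. Lowest in both regions were Col10a1, known from the growth plate, and Col4a3, a chain of the kidney filter, with 0.0248 and 0.0473 CPM per kb in the mPFC. These 2 genes had a mean under 0.5 CPM in both regions, and Col10a1 had no read in 7 mPFC and 7 vHipp libraries.

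**Figure D1:**
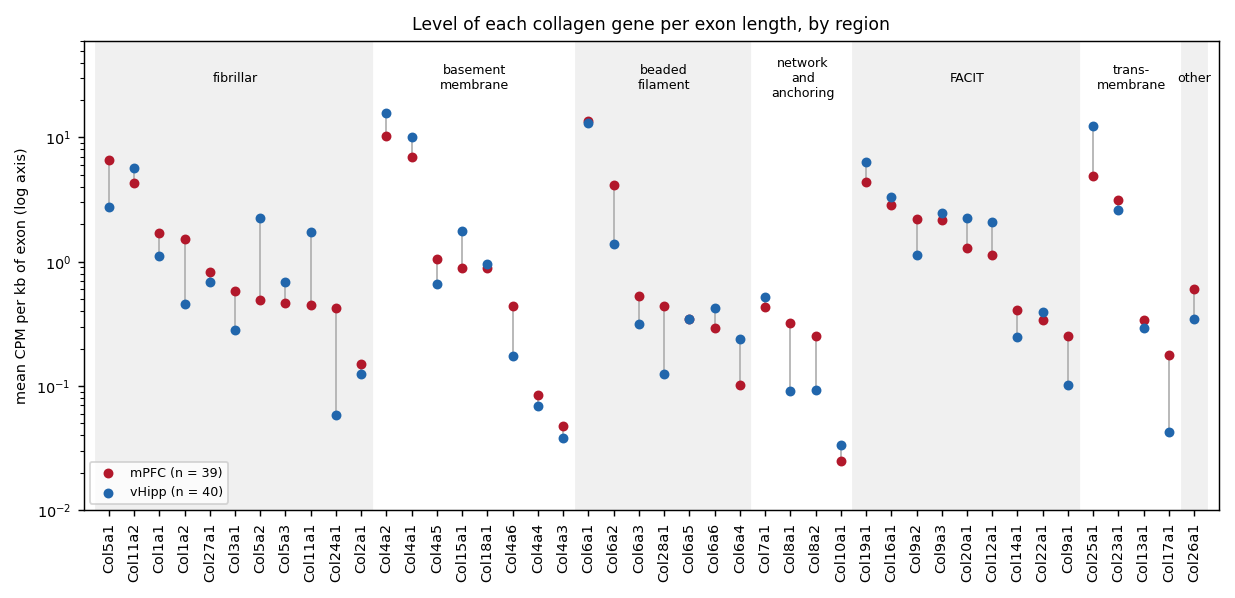
Mean level of each of the 44 collagen genes in CPM per kb of exon (log axis), mPFC in red (39 libraries) and vHipp in blue (40 libraries), grouped by structural class. Col4a2, Col6a1, Col25a1 and Col4a1 hold the highest points of the vHipp, and the regions lie farthest apart for Col24a1, Col5a2, Col17a1 and Col11a1.

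The first comparison asks how the collagen make-up of the regions differs. Of the 44 genes 19 were higher in the mPFC, 16 were higher in the vHipp and 9 did not pass the test (edgeR quasi-likelihood test, adjusted p under 0.05 over 31534 genes), that is 79.5% of the family against 48.9% of all genes tested. Part of that gap went with level, since among genes with a mean of at least 1 CPM, 67.3% of all and 84.2% of 38 collagens passed. A difference of at least 2-fold was found for 31.6% of those collagens and 7.9% of all genes of that level, and the median absolute difference was 0.70 on the log2 scale for these collagens and 0.18 for all. The median signed difference was 0.02 for these collagens and -0.02 for all genes of that level. Every class held genes of both directions except the single Col26a1 (the plot of region differences).

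**Figure D2:**
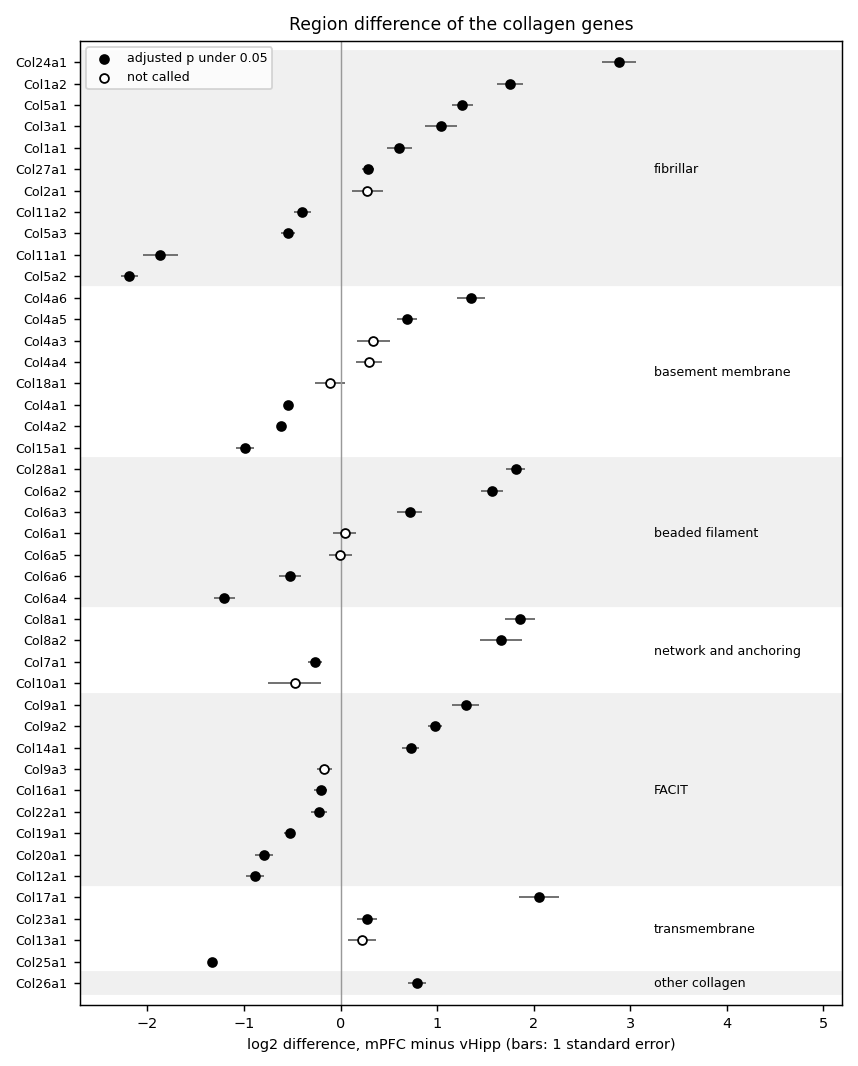
Log2 difference of each collagen gene, mPFC minus vHipp, averaged over the 4 groups (edgeR, 79 libraries), with 1 standard error, by structural class. Filled points passed an adjusted p of 0.05, and positive values are higher in the mPFC. Values run from -2.19 (Col5a2) to 2.88 (Col24a1).

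The classical fibrillar chains Col1a1, Col1a2 and Col3a1, which make up the type I and III fibrils of meninges and vessel walls, were all higher in the mPFC. Col1a2 ranged from 6.39 to 57.5 CPM with a median of 16.6 in the mPFC and from 2.47 to 11.3 CPM with a median of 5.01 in the vHipp. The ranges overlapped, and the mPFC was higher in 36 of 39 mice. Its difference was 1.76 ± 0.14 (log2, SE), with an adjusted p of 1.43e-19 in edgeR. Col3a1 ranged from 1.57 to 17.2 CPM (median 4.77) in the mPFC and from 1.09 to 6.35 CPM (median 2.65) in the vHipp, a difference of 1.04 ± 0.17 with 30 of 39 mice higher in the mPFC. Col1a1 ranged from 4.44 to 33.4 CPM (median 8.41) and from 3.57 to 14.0 CPM (median 7.16). It differed by only 0.61 ± 0.13 (edgeR, adjusted p = 3.63e-05) and was higher in the mPFC of 27 of 39 mice. The ratio of Col1a1 to Col1a2 counts, chains that assemble together, had a median of 0.581 (0.363 to 0.844) in the mPFC and of 1.25 (0.836 to 2.63) in the vHipp, and the ranges met only at their ends.

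Promoter windows are printed here for genes whose levels moved together, a pair of fibrillar genes on different chromosomes and the type IV pair Col4a1 and Col4a2, which lie head to head. The windows are from RefSeq (GRCm38.p6), which had one for 35 of the 44 genes, and run from 250 bases before to 50 bases after the start, 5′ to 3′ on the gene's strand. Capitals mark, on either strand, the box CCAAT, the GC box (letters GGGCGG) and the TATA box (letters TATAAA).
Col1a2 (chr6:4505368-4505667, plus strand): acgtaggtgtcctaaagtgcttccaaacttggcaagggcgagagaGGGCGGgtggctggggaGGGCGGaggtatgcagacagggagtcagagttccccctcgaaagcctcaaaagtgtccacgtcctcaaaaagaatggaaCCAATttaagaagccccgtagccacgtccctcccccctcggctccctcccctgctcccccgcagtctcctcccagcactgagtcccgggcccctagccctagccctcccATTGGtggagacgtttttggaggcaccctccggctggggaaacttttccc
Col3a1 (chr1:45311288-45311587, plus strand): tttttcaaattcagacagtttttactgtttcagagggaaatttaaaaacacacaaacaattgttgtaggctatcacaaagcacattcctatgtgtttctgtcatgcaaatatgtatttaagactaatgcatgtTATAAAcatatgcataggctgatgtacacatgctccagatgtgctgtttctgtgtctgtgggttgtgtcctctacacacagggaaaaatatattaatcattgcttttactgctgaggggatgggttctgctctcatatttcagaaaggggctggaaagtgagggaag
Col4a1 (chr8:11312777-11313076, minus strand): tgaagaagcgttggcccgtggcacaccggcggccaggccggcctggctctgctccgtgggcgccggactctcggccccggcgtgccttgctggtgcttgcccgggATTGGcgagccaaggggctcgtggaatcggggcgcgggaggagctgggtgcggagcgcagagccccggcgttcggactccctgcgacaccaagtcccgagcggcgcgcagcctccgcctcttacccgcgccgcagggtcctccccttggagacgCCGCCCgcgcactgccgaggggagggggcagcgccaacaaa
Col4a2 (chr8:11312555-11312854, plus strand): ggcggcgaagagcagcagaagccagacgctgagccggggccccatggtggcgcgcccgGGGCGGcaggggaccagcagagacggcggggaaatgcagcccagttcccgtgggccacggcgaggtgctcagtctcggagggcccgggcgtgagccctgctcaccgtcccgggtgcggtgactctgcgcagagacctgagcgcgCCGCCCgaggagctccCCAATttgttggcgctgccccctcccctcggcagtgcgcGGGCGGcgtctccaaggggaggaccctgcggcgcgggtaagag
CCAAT stood in 37.4% of all 32851 windows of this length, GGGCGG in 35.7% and TATAAA in 13.6%, and in 34.2%, 60.5% and 13.2% of the 38 collagen windows (Col18a1, Col6a2 and Col9a1 had 2 each). The Col1a2 window had CCAAT once on each strand and GGGCGG 2 times, whereas the Col3a1 window had TATAAA once and neither of the others. Col3a1 was also the poorest in G and C, 37.7% against 61.0% in Col1a2, 74.0% in Col4a1 and 73.7% in Col4a2. Col4a1 and Col4a2 each had CCAAT once, and GGGCGG stood once in the former and 3 times in the latter. They lie on chromosome 8 with starts 21 bases apart, their windows share 78 bases, and the annotated genes overlap by 22 bases. Whether reads were counted by strand is not given in the sources used here, so a read in those 22 bases could count for either gene.

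Other fibrillar chains went both ways. Col24a1 showed the greatest regional excess in the mPFC among the family, with 0.770 to 5.75 CPM (median 3.11) in the mPFC and 0 to 1.29 CPM (median 0.374) in the vHipp, a difference of 2.88 ± 0.18, and the mPFC was higher in 39 of 39 mice. Col5a1, a chain that regulates fibril diameter, was higher in the mPFC by 1.26 ± 0.11 (medians 51.7 and 21.7 CPM), while its partner chains Col5a2 and Col5a3 were higher in the vHipp. For Col5a2 the mPFC libraries ran from 2.37 to 8.22 CPM and the vHipp libraries from 9.75 to 37.9 CPM, with no overlap and a log2 difference of -2.19 ± 0.09. It was 1 of 2 collagens whose libraries separated fully by region, the other being Col25a1. The type XI chains Col11a1 and Col11a2, best known from cartilage, were both higher in the vHipp, by -1.87 ± 0.18 and -0.40 ± 0.09. Col11a1 spread broadly, from 2.41 to 78.8 CPM with a median of 17.5 in the vHipp, against 2.09 to 9.33 CPM in the mPFC. About the group means its vHipp spread was 1.004 on the log2 scale, more than in 99.7% of 2502 genes of like level. Col27a1 was slightly higher in the mPFC (0.28 ± 0.07), and Col2a1, the cartilage collagen, did not pass (0.28 ± 0.16, adjusted p = 0.144 in edgeR).

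The major basement membrane chains Col4a1 and Col4a2 were higher in the vHipp. Col4a1 ranged from 41.7 to 67.7 CPM (median 50.9) in the mPFC and from 63.4 to 91.006 CPM (median 71.8) in the vHipp, and Col4a2 from 51.9 to 84.7 CPM (median 66.3) and from 73.2 to 139.5 CPM (median 100.2). The regional ranges of each overlapped at their ends, but within animals the vHipp was higher in all 39 mice for both. The differences were -0.54 ± 0.04 for Col4a1 and -0.62 ± 0.04 for Col4a2 (edgeR, adjusted p = 2.69e-23 and 3.19e-22). The other type IV chains did not follow. Col4a5 and Col4a6, which lie head to head on the X chromosome with starts 1309 bases apart, were higher in the mPFC by 0.69 ± 0.10 and 1.35 ± 0.15. Col4a6 had 1.14 to 8.98 CPM (median 2.85) in the mPFC and 0.503 to 2.82 CPM (median 1.29) in the vHipp. Col4a3 and Col4a4, a pair on chromosome 1, stood below 1 CPM on average in both regions and did not pass (0.34 ± 0.17 and 0.30 ± 0.13, adjusted p = 0.0878 and 0.0561 in edgeR). With the mouse as a block Col4a4 passed (0.33 ± 0.12, adjusted p = 0.0171). Without the vHipp library of mouse 9, which had the highest vHipp level of both genes, 1.16 CPM of Col4a3 and 2.09 CPM of Col4a4, both passed with 0.41 ± 0.17 and 0.36 ± 0.13 (adjusted p = 0.0342 and 0.0152). Both also passed without the library of mouse 11 (0.39 ± 0.17 and 0.32 ± 0.13, adjusted p = 0.0473 and 0.0407), and Col4a4 with DESeq2 and without mouse 30. The library of mouse 9 was also the highest in choroid plexus markers, with 645 CPM of transthyretin (Ttr), their defining gene. Ttr was at 0 in 4 other vHipp libraries. The part of choroid plexus in these 2 differences was not tested.
Of the basement membrane collagens that also carry chondroitin or heparan sulfate, Col15a1 was higher in the vHipp (-0.99 ± 0.09, medians 5.54 CPM in the mPFC and 10.4 CPM in the vHipp). Col18a1, the source of endostatin, did not differ by the test (-0.11 ± 0.15), with 2.69 to 18.9 CPM in the mPFC and 2.48 to 17.4 CPM in the vHipp.

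The chains of type VI collagen diverged, although several are thought to assemble with each other. Col6a1 had medians of 57.9 CPM in the mPFC and 46.5 CPM in the vHipp and did not pass (0.04 ± 0.12, adjusted p = 0.808 in edgeR). Its neighbour Col6a2, on the same strand 85161 bases away, was higher in the mPFC by 1.57 ± 0.11, with 17.0 to 49.2 CPM (median 34.4) against 4.14 to 31.0 CPM (median 10.3). The median ratio of Col6a1 to Col6a2 counts was thus 1.79 (1.20 to 2.26) in the mPFC and 5.51 (1.89 to 9.25) in the vHipp. Col6a3 was higher in the mPFC (0.71 ± 0.13). Of the later chains, encoded side by side on chromosome 9, Col6a4 and Col6a6 were higher in the vHipp (-1.20 ± 0.11 and -0.52 ± 0.11), and Col6a5 had a difference of -0.0016 ± 0.12 whose sign changed with the scaling. Col28a1, a short chain known from peripheral nerve, was higher in the mPFC by 1.81 ± 0.10 (median 2.12 CPM against 0.556 CPM).

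Among network-forming chains, Col8a1 and Col8a2, which build the lattice of Descemet's membrane in the eye, were both higher in the mPFC, by 1.86 ± 0.15 and 1.66 ± 0.22. Col8a1 had 1.29 to 5.33 CPM in the mPFC and 0.219 to 3.03 CPM in the vHipp, where the highest library was again that of mouse 9. Col7a1, the anchoring fibril of skin, was slightly higher in the vHipp (-0.26 ± 0.07). Col10a1 did not pass (-0.48 ± 0.27, adjusted p = 0.146 in edgeR).

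The FACIT group lies on the surface of fibrils or, for Col19a1, in the neuropil. The type IX chains differed from each other: Col9a1 and Col9a2 were higher in the mPFC (1.30 ± 0.14 and 0.98 ± 0.07) and Col9a3 was not called (-0.17 ± 0.08, adjusted p = 0.0703 in edgeR). Col9a2 was higher in the mPFC of 39 of 39 mice, with medians of 6.77 and 3.45 CPM. Col14a1 was higher in the mPFC (0.73 ± 0.09). Col12a1 (-0.89 ± 0.10), Col20a1 (-0.79 ± 0.09), Col22a1 (-0.22 ± 0.09) and Col16a1 (-0.20 ± 0.07) were higher in the vHipp.

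Both neuronal collagens were higher in the vHipp. Col25a1 ranged from 44.8 to 98.4 CPM (median 63.2) in the mPFC and from 118.1 to 224 CPM (median 160.9) in the vHipp, without overlap, a difference of -1.33 ± 0.05 (edgeR, adjusted p = 1.63e-41). It had the smallest adjusted p of the family. Col19a1 ranged from 25.8 to 36.1 CPM (median 30.1) in the mPFC and from 27.5 to 92.4 CPM (median 43.1) in the vHipp, a difference of -0.53 ± 0.06, and the vHipp was higher in 37 of 39 mice. Col9a1 is its neighbour on chromosome 1, 9205 bases away on the other strand, and differed in the opposite direction. Of the remaining transmembrane chains, Col17a1, which anchors epithelial cells in the skin, was higher in the mPFC by 2.05 ± 0.21 at a low level (0.0589 to 2.48 CPM, median 1.11, against 0 to 0.526 CPM, median 0.241). Col23a1 was slightly higher there (0.27 ± 0.11), and Col13a1 did not pass (0.22 ± 0.15). Col26a1 was higher in the mPFC by 0.79 ± 0.09.

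Markers of other cell types also differed between the regions, in both directions. Of 15 meningeal fibroblast markers 11 were higher in the mPFC and 2 in the vHipp, with a median difference of 1.36. Slc22a6 (2.41 ± 0.18), Gjb2 (1.75 ± 0.14), Mgp (1.58 ± 0.19) and Fmod (1.57 ± 0.15) were higher in the mPFC, whereas Ogn was higher in the vHipp (-1.82 ± 0.19). Summed, these markers ran from 47.9 to 395 CPM in the mPFC and from 44.2 to 148.9 CPM in the vHipp. All 6 border macrophage markers (median 1.19) and all 5 blood genes (median 1.02) were higher in the mPFC. Mural markers were higher there in 6 of 9 cases, led by the smooth muscle genes Tagln (1.99 ± 0.20), Acta2 (1.91 ± 0.20) and Myh11 (1.35 ± 0.17), with Pdgfrb (0.43 ± 0.06) and Vtn (0.23 ± 0.08) closer to 0. Endothelial markers were higher in 6 of 10 cases, with a median of only 0.20. Cdh5 (0.44 ± 0.08), Abcb1a (0.30 ± 0.07), Tek (0.28 ± 0.07), Ly6c1 (0.21 ± 0.08) and Cldn5 (0.20 ± 0.07) were the largest of those that passed. Of 8 inhibitory interneuron markers 5 were higher in the vHipp and 2 in the mPFC (median -0.12). Choroid plexus markers split into 4 and 2 of 11 (median -0.50). Of all genes with a mean of at least 1 CPM, 67.3% passed in either direction. The mural, endothelial and choroid plexus lists did not exceed that share. The part of these cell types in the regional differences of the collagens was not tested.

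Genes that process, bind or accompany collagens went in both directions as well, and the shares of each list that passed are to be read against the 67.3% of all genes with a mean of at least 1 CPM. Of 30 genes of collagen processing 7 were higher in the mPFC, 15 in the vHipp and 8 did not pass (median -0.07). Adamts14, a procollagen N-propeptidase, was higher in the vHipp by -2.71 ± 0.13 and the cross-linking enzyme Loxl1 by -1.20 ± 0.13. The cross-linking enzymes Lox (1.44 ± 0.22) and Loxl2 (1.27 ± 0.19) and the enhancer of propeptide removal Pcolce (1.34 ± 0.14) were higher in the mPFC. Collagen receptors split into 4 and 4 of 10. The integrin chains Itga11 (-1.63 ± 0.11) and Itga2 (-1.60 ± 0.28) and the kinase Ddr2 (-1.36 ± 0.09) were higher in the vHipp, and Mrc2 (0.93 ± 0.12) and Lair1 (0.33 ± 0.09) in the mPFC. Partners of type IV collagen in basement membranes were higher in the mPFC in 8 and in the vHipp in 2 of 15 cases. The laminin chains Lama4 (1.36 ± 0.07) and Lama1 (1.18 ± 0.13) were among the former and Lamb3 (-1.003 ± 0.08) and Lamb1 (-0.84 ± 0.05) made up the latter.

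The next question is which collagens vary together from library to library within a region. Correlations among collagens were taken about the group means and are descriptions, since all libraries of a region share their normalization and dissection. In the mPFC 40 collagens reached a mean of 1 CPM, and their 780 pairs had a median r of 0.12. One set stood out (the heat map of correlations): Col1a1, Col1a2, Col3a1, Col4a5, Col4a6 and Col18a1, whose 15 pairs had r from 0.86 to 0.94, and from 0.84 to 0.94 without the libraries of mice 30 and 26. The set mixed fibrillar and basement membrane chains from different chromosomes and was chosen after its values were seen. Col4a1 correlated with Col4a2 at 0.85 and with Col1a1 at 0.55. Col6a1 and Col6a2 correlated with each other at 0.78, and Col6a1 with Col1a1 at -0.32. Col25a1 had negative values with the fibrillar set, such as -0.52 with Col3a1, and the lowest value of the region, -0.65, with Col16a1.

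**Figure D3:**
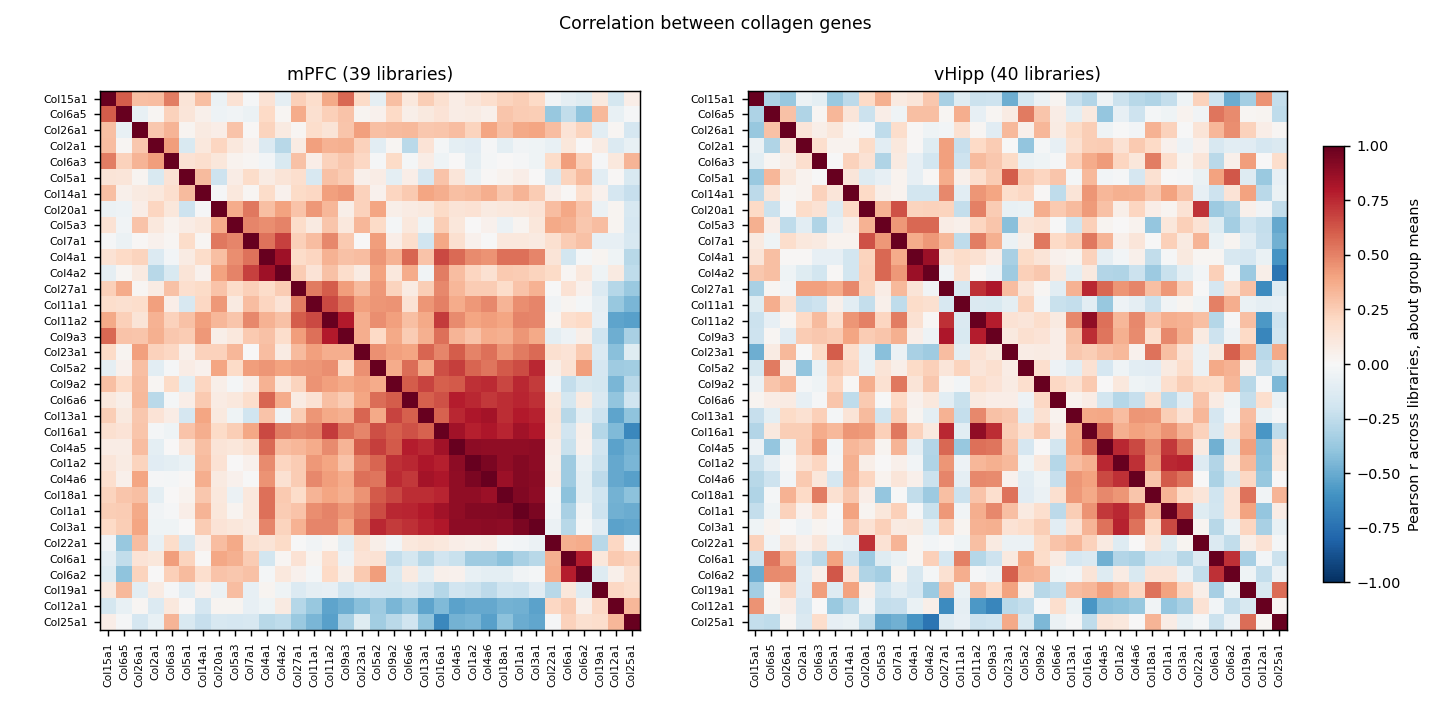
Pearson r across libraries between the collagen genes with a mean of at least 1 CPM in both regions, about the group means, mPFC on the left and vHipp on the right in the same gene order, which was set by average-linkage clustering of the mPFC values. The dark square of the mPFC holds Col1a1, Col1a2, Col3a1, Col4a5, Col4a6 and Col18a1 (r of 0.86 to 0.94), which is paler in the vHipp (0.20 to 0.77).

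In the vHipp 35 collagens and 595 pairs were compared, with a median r of 0.07. The same 6 genes had r from 0.20 to 0.77, and from 0.10 to 0.76 without mice 11, 9 and 4. The highest pair was Col16a1 with Col11a2 (0.88), followed by Col4a1 with Col4a2 (0.86) and Col9a3 with Col27a1 (0.81). Col25a1 reached -0.73 with Col4a2 and 0.56 with Col19a1, which in the mPFC was 0.18. Genes that lie next to each other were not alike as a rule. Of the head-to-head pairs, Col4a1 with Col4a2 had 0.85 and 0.86 and Col4a5 with Col4a6 had 0.89 and 0.66 (mPFC and vHipp), while Col4a3 with Col4a4, whose starts are 72 bases apart and whose counts were low, had 0.15 and 0.20. Col6a1 with Col6a2 had 0.78 and 0.73, Col3a1 with Col5a2 had 0.75 and 0.18, Col9a1 with Col19a1 had -0.20 and 0.12, and Col6a5 with Col6a6 had 0.06 and 0.08. The ratio of Col4a1 to Col4a2 counts stayed between 0.687 and 0.895 in all mPFC libraries and between 0.6 and 0.892 in all vHipp libraries.

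For 8 collagens the level in each library was set against the mean log2 level of 5 marker lists. List genes needed a mean of at least 0.5 CPM, which kept 14 of the 15 meningeal and 5 of the 11 choroid plexus markers. Between regions, each gene was set against the same gene in the same mouse. Of the 88 relations in all, 32 had an adjusted p under 0.05 (two-sided permutation test, 100000 resamples). The fibrillar trio followed the meningeal markers closely. In the mPFC r was 0.95 for Col1a2 (rho = 0.96), 0.91 for Col1a1 (rho = 0.91) and 0.90 for Col3a1 (rho = 0.88), each with p = 1e-05, the smallest value the resamples can give, and an adjusted p of 6.29e-05. Without the 2 libraries farthest from the median of the list, those of mice 30 and 8, r was 0.94, 0.89 and 0.88. In the vHipp r was 0.86 for Col1a2, 0.76 for Col3a1 and 0.65 for Col1a1 (rho = 0.85, 0.75 and 0.62), with the same p, and without its 2 farthest libraries 0.84, 0.72 and 0.59. About the group means r was 0.95, 0.91 and 0.92 in the mPFC and 0.86, 0.73 and 0.73 in the vHipp for Col1a2, Col1a1 and Col3a1.
The same genes also followed mural markers, with r of 0.90 (Col1a1), 0.90 (Col1a2) and 0.92 (Col3a1) in the mPFC and of 0.73, 0.76 and 0.57 in the vHipp. The mural value was the higher of the pair for Col3a1 in the mPFC and for Col1a1 in the vHipp. Differences between these values of r were not tested, and the lists themselves vary together. With endothelial markers r was 0.69 to 0.76 in the mPFC. In the vHipp Col1a1 (0.52) and Col1a2 (0.39) passed, but without the libraries of mice 11 and 17, the farthest in that list, r was 0.36 and 0.17. By rank Col1a1 passed (rho = 0.58, adjusted p = 0.00077, permutation test) and Col1a2 did not (rho = 0.35), so the value of Col1a2 rests on those libraries. Without all 3 vHipp libraries that stood apart neither passed (0.30 and 0.19). About the group means r with endothelial markers in the vHipp was 0.57 for Col1a1, 0.59 for Col1a2 and 0.38 for Col3a1, and all 3 passed, where Col3a1 had not (0.22).

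**Figure D4:**
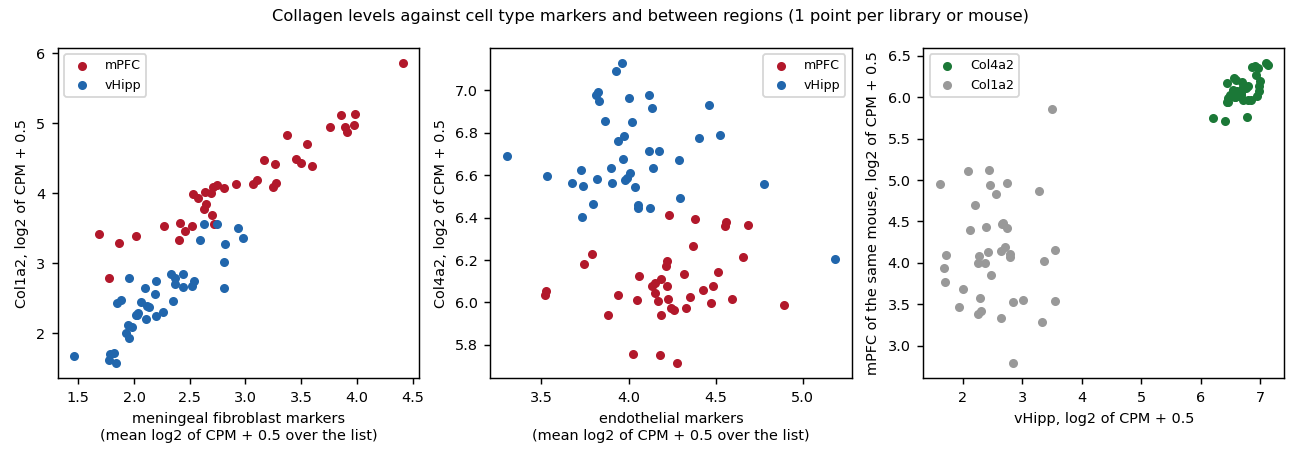
Left, Col1a2 against the mean log2 level of the meningeal fibroblast markers, 1 point per library (mPFC red, vHipp blue, r of 0.95 and 0.86). Centre, Col4a2 against the endothelial markers (r of 0.23 and -0.18, not called). Right, the mPFC against the vHipp of the same 39 mice for Col4a2 (green, r of 0.64) and Col1a2 (grey, r of 0.02).

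Col4a1 and Col4a2 had lower values of r with these lists. Col4a1 in the mPFC had r of 0.52 with mural (rho = 0.47, p = 0.00046, adjusted p = 0.00193) and 0.50 with endothelial markers (rho = 0.53, p = 0.00128, adjusted p = 0.00443), both by permutation. It reached 0.38 with the meningeal list, where rho was 0.31 and did not pass. In the vHipp its values with these lists were -0.19 to 0.03, and none passed. By Pearson's r Col4a2 passed with none of the 5 lists in either region (-0.28 to 0.29), but by rank it passed with interneuron markers in the mPFC (rho = -0.40, adjusted p = 0.0386, permutation test). It was the only one of the 8 genes whose mPFC level followed its vHipp level in the same mouse, with r = 0.64 (rho = 0.54, p = 3e-05, adjusted p = 0.000176, permutation test), and 0.53 without mice 1 and 11. For the fibrillar trio that value was -0.14 (Col1a1), 0.02 (Col1a2) and -0.09 (Col3a1), with p from 0.415 to 0.894, and for Col4a1 it was 0.26 (p = 0.11). The difference between Col4a2 and the other genes was not tested.

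The neuronal collagens went apart. Col25a1 in the mPFC had negative r with meningeal (-0.49, rho = -0.46, adjusted p = 0.00512), mural (-0.50, rho = -0.50, adjusted p = 0.00429) and endothelial markers (-0.52, rho = -0.47, adjusted p = 0.00296) by permutation, and 0.05, 0.09 and 0.01 in the vHipp. Without the vHipp libraries of mice 11 and 17 it had -0.15 with mural and -0.32 with endothelial markers there. By rank over all vHipp libraries its endothelial value was -0.24, which did not pass. Its value with interneuron markers was -0.04 in the mPFC and 0.20 in the vHipp, and neither passed. Col19a1 followed interneuron markers in the vHipp with r = 0.54 (rho = 0.44, p = 0.00038, adjusted p = 0.00167, permutation test), which was 0.36 without the libraries of mice 11 and 32. In the mPFC it had 0.26 (p = 0.114) with them. By rank it passed there with meningeal markers (rho = -0.38, adjusted p = 0.0487, permutation test), where r was -0.30 and did not pass. Its relations with mural (0.38) and endothelial markers (0.51) in the vHipp rested on the libraries of mice 11 and 17, being 0.10 and 0.27 without them. The library of mouse 11 was the highest for Col19a1, Col25a1, Col1a1, Col4a5 and Col4a6 in the vHipp and had a pan-neuronal sum of 3757 CPM against a median of 5220 CPM.
Col9a3 followed endothelial markers in both regions, with r of 0.56 in the mPFC and 0.63 in the vHipp (rho = 0.47 and 0.64), and mural markers with 0.41 and 0.59. Its value of 0.39 with choroid plexus markers in the vHipp rested on the libraries of mice 9 and 13, since it was -0.08 without them and rho was 0.03.

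By likeness of pattern over all genes with a mean of at least 1 CPM, the 10 genes most like the mean of Col1a1, Col1a2 and Col3a1 in the mPFC were, of 15617 genes, Bgn (r = 0.94 over 39 libraries), Cyp1b1, Anpep, Colec12, Lama1, Nid1, Timp3, Aebp1, Mfap4 and Ltbp1 (0.92). In the vHipp, of 15540 genes, they included Slc6a20a (r = 0.92 over 40 libraries), Colec12, Bgn, Nid1, Slc6a13, Fbln5, Mgp, Cped1 and Crip1 (0.82). Bgn, Colec12 and Nid1 stood in both lists. Most like the mean of Col4a1 and Col4a2 were P3h2, Ptpn5, Obsl1, Slc27a1, Slc38a10, Ltbp4, Zfp362, Acacb, Egfl7 and Arap3 in the mPFC (0.68 to 0.64). P3h2, the prolyl 3-hydroxylase that modifies type IV collagen, led that list. In the vHipp the list was Arl3, Ccdc85b, Smdt1, Myl6, 1500015A07Rik, Ufc1, Map2k2, Stub1, Ttc9b and Snf8 (0.80 to 0.77), with no gene in common. For 4 single genes chosen after their values were seen, the gene most alike in the vHipp was Rgs12 for Col19a1 (0.88), Phc3 for Col25a1 (0.86), Bace2 for Col6a1 (0.81) and Amy1 for Col11a1 (0.67), and in the mPFC it was Nemf (0.70), G3bp2 (0.78), Ntsr1 (0.80) and Cmtm5 (0.78).

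The design then asks whether defeat or ketamine altered the collagens within a region. No collagen and no other gene passed an adjusted p of 0.05 in any of 10 comparisons (stress under each treatment, ketamine in each stress group, and their interaction, in each region), in edgeR or in DESeq2. These fits held no term for the social group of the mice, which the study's own model included and the labels used here do not give. The paper compared defeated with control mice separately in dominant and in subordinate animals. Most of its differential genes were in the mPFC of dominant mice given ketamine. Rank is not in the labels either, so that split was not made. In the fits made here the smallest adjusted p of a collagen was 0.83. At an unadjusted p under 0.05 edgeR gave 0 to 5 of the 44 genes per comparison. In the mPFC it gave 1 collagen for stress with saline (2.94% of all genes tested), 5 for stress with ketamine (5.8%), 3 for ketamine in CTRL mice (3.64%), 2 for ketamine in CSDS mice (4.32%) and 3 for the interaction (5.31%). In the vHipp it gave 1 for stress with saline (5.57%), 0 for stress with ketamine (5.42%), 0 for ketamine in CTRL mice (2.88%), 2 for ketamine in CSDS mice (2.9%) and 1 for the interaction (2.84%). DESeq2 gave 4 for stress with ketamine in the mPFC, 1 for ketamine in CTRL mice in the vHipp, and the edgeR count in the other 8.

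**Figure D5:**
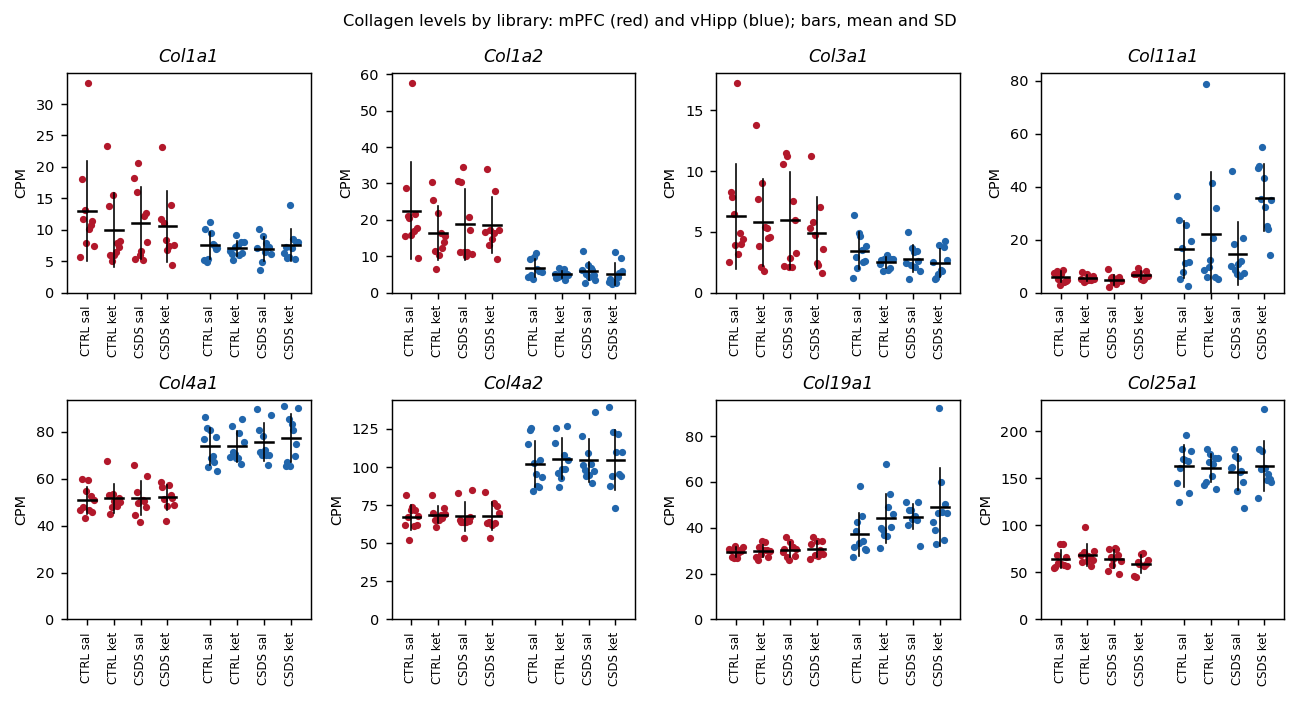
CPM of 8 collagens in each library (points) by group, mPFC in red and vHipp in blue, with the mean (horizontal bar) and SD (vertical bar) of 9 or 10 libraries, on linear axes from 0. Regions separate for Col25a1 and nearly so for Col4a1 and Col4a2, while the groups within a region overlap for every gene shown.

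The fibrillar chains overlapped between all groups of a region (the plot of levels by group). In the mPFC Col1a1 ran from 5.605 to 33.4 CPM (median 11.1) in CTRL saline, from 4.97 to 23.3 CPM (median 7.55) in CTRL ketamine, from 5.12 to 20.6 CPM (median 10.1) in CSDS saline and from 4.44 to 23.2 CPM (median 8.41) in CSDS ketamine mice. The stress difference was -0.22 ± 0.31 (log2, SE) under saline and 0.08 ± 0.32 under ketamine, with unadjusted p of 0.477 and 0.813 in edgeR. At these standard errors a change of the same size was not detectable for this gene. In the vHipp Col1a1 had group medians of 6.91 to 7.33 CPM, and none of its differences passed (-0.10 ± 0.16 for stress with saline). The meningeal markers in the mPFC had group medians between 114.2 and 148.5 CPM and ranges that overlapped as widely. In the vHipp ketamine in CTRL mice gave -0.10 ± 0.16 for Col1a1, -0.41 ± 0.24 for Col1a2 and -0.46 ± 0.24 for Col3a1 (edgeR, unadjusted p = 0.523, 0.0925 and 0.0629). In the same comparison 8 of the 15 meningeal markers had an unadjusted p under 0.05, against 2.88% of all genes, and all 8 were lower with ketamine. None passed after adjustment, and the median over the list was -0.53. The markers were read in the same libraries, so these 8 are not independent of each other. The summed level of the list ran from 61.3 to 148.9 CPM (median 89.5) in CTRL saline and from 57.7 to 116.1 CPM (median 79.9) in CTRL ketamine mice, with overlap. The highest sums of the vHipp, 148.9 CPM (mouse 30) and 138.7 CPM (mouse 29), were both of CTRL saline mice. No fit left out either library. The part of meningeal content in the values of these 3 chains was not tested.
The type IV chains were measured far more tightly. Col4a1 in the mPFC had group means of 50.8 ± 5.70 (CTRL saline), 51.7 ± 6.16 (CTRL ketamine), 51.8 ± 7.25 (CSDS saline, each SD, n = 10) and 52.0 ± 5.17 CPM (CSDS ketamine, SD, n = 9). Stress with saline gave 0.02 ± 0.07 in the mPFC and 0.05 ± 0.07 in the vHipp, and Col4a2 gave 0.01 ± 0.08 and 0.05 ± 0.10. For Col25a1, stress with ketamine in the mPFC gave -0.22 ± 0.10 (unadjusted p = 0.0276, adjusted p = 0.83 in edgeR), from a median of 67.1 CPM in CTRL to 59.4 CPM in CSDS mice. Without the library of mouse 26, whose 98.4 CPM was the highest of the region, it was -0.15 ± 0.09. For Col19a1, stress with saline in the vHipp gave 0.29 ± 0.14 (unadjusted p = 0.0501), from a median of 33.6 to 44.9 CPM.

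Among the genes with an unadjusted p under 0.05, several values moved with single libraries. Col8a2 in the vHipp had 0.0860 to 0.748 CPM (median 0.328) in CTRL saline, 0.0575 to 0.440 CPM (median 0.230) in CTRL ketamine, 0 to 3.72 CPM (median 0.294) in CSDS saline and 0.0543 to 0.588 CPM (median 0.154) in CSDS ketamine mice. The high CSDS saline values came from mouse 4 (3.72 CPM) and mouse 9 (2.97 CPM), and all other vHipp libraries were at or below 0.748 CPM. Stress with saline gave 1.42 ± 0.52 (unadjusted p = 0.00905) and ketamine in CSDS mice -2.06 ± 0.56 (unadjusted p = 0.000651, adjusted p = 1 in edgeR). Without mouse 4 these were 0.76 ± 0.50 and -1.40 ± 0.53, and without mouse 9 they were 1.01 ± 0.52 and -1.65 ± 0.55. The stress difference thereby lost an unadjusted p under 0.05, and the ketamine difference kept it. Mouse 9 had the highest choroid plexus sum and mouse 4, with 37.2 CPM of those markers, was far below it. Of the 11 choroid plexus markers, 7 had an unadjusted p under 0.05 for stress with saline, all higher in CSDS mice, and 9 for ketamine in CSDS mice, all lower with ketamine (5.57% and 2.9% of all genes), and none passed after adjustment. Without mouse 9 these counts were 3 and 3. The markers were read in the same libraries, so they are not independent of each other. The part of choroid plexus in the values of Col8a2 was not tested.
Col6a3 in the mPFC had medians of 5.18 to 6.26 CPM in the 4 groups and 1 library, that of mouse 26 (CTRL ketamine), with 33.5 CPM. Ketamine in CTRL mice gave 0.68 ± 0.27 with that library and 0.12 ± 0.16 without it, and stress with ketamine gave -0.58 ± 0.27 and -0.02 ± 0.17.
Col11a1 in the vHipp kept an unadjusted p under 0.05 without each of mice 11, 9 and 4 (1.19 to 1.68). It had 6.32 to 46.0 CPM (median 10.5) in CSDS saline and 14.3 to 54.8 CPM (median 35.1) in CSDS ketamine mice, overlapping ranges in which all CSDS ketamine libraries but the lowest lay above all CSDS saline libraries but the highest, that of mouse 4. Ketamine in CSDS mice gave 1.27 ± 0.43 (unadjusted p = 0.00477, adjusted p = 1 in edgeR). In CTRL mice the medians were 14.0 CPM with saline and 11.0 CPM with ketamine. In the mPFC of CSDS mice the gene gave 0.46 ± 0.19 for ketamine (unadjusted p = 0.0215), from a median of 4.79 to 6.84 CPM, and 0.58 ± 0.27 for the interaction (unadjusted p = 0.0388). That interaction no longer reached an unadjusted p of 0.05 without mouse 30 (0.54 ± 0.27) or mouse 26 (0.53 ± 0.27).
Col9a2 in the mPFC was the collagen with the smallest unadjusted p for the interaction there (0.50 ± 0.18, p = 0.00807, adjusted p = 0.898 in edgeR). It also gave 0.36 ± 0.13 for stress with ketamine and -0.26 ± 0.13 for ketamine in CTRL mice. Its medians were 6.97 CPM in CTRL saline, 5.68 CPM in CTRL ketamine, 6.06 CPM in CSDS saline and 7.03 CPM in CSDS ketamine mice. Col22a1 gave -0.58 ± 0.23 for the same interaction, 0.36 ± 0.16 for stress with saline and 0.33 ± 0.16 for ketamine in CTRL mice, with medians of 2.65, 3.35, 3.37 and 3.16 CPM in that order of groups. In the vHipp Col6a1 gave 0.88 ± 0.39 for it (unadjusted p = 0.03), with medians of 60.8, 42.9, 41.1 and 58.0 CPM. The remaining cases, all in the mPFC, were Col12a1 (-0.28 ± 0.13) and Col10a1 (-1.17 ± 0.52) for stress with ketamine and Col5a2 (-0.38 ± 0.17) for ketamine in CSDS mice.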

How the data were processed

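The authors sequenced mRNA libraries (Illumina Stranded mRNA Prep, paired reads) of mPFC and vHipp punches. The deposited table holds raw counts per gene on GRCm38, and bcl2fastq 2.20.0.422 is named in the submitters' notes, while the aligner, the counter and the use of strand are not given in the sources used here. Counts were used as deposited, 79 libraries by 55471 genes, with 11726129 to 41767119 counts per library, and 55144 identifiers matched a symbol. Genes with a total over 10 and counts in more than 3 libraries were tested with edgeR 4.0.16 (TMM, quasi-likelihood, R 4.3.3, Benjamini-Hochberg adjustment over all genes tested), with DESeq2 1.42.0 as an alternative. The region difference was fitted over all libraries without the mouse, and each region was fitted with its 4 groups. Levels are TMM-scaled CPM, and correlations used log2(CPM + 0.5) with 100000 resamples in scipy 1.17.1, Benjamini-Hochberg adjusted over 88 relations. Fits and correlations were tested on simulated data.

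Mouse numbers in the labels mark the same animal in both regions. Deviations from the group means over 15701 genes correlated with a median r of 0.26 within a mouse (lowest -0.01, over 0.1 in 36 of 39) and of -0.0030 between mice. Named were all collagens, the 5 genes of each other list with the largest regional difference at an adjusted p under 0.05, and the 10 genes most alike the fibrillar trio or the type IV pair, of which 2 are not reported here. The members and lists were chosen with earlier results of these data known. The alternatives were another scaling, 2 other filters, DESeq2, only the groups compared, the mouse as a block and, chosen after seeing the data, fits without each of 5 libraries.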

Additional observations from a re-analysis of the deposited data

Results flagged for a closer look

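Within a group of 9 or 10 libraries, 27 of 176 highest or lowest values stood apart by Dixon's criterion, where chance gives about 8.8 for normally distributed values. The criterion was applied to CPM and not to logs, so 8.8 is no firm expectation here. Apart from that of Col10a1, all values that stood apart were highest values. Because all come from the same libraries, they are not independent of each other.

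In the mPFC, mouse 30 (CTRL saline) was far above its group for Col1a1 (33.4 CPM), Col1a2 (57.5 CPM) and Col3a1 (17.2 CPM). Mouse 26 (CTRL ketamine) was so for Col6a3 (33.5 CPM), Col25a1 (98.4 CPM) and the summed interneuron markers (1028.98 CPM). Mouse 21 (CTRL ketamine) stood apart for Col4a1 (67.7 CPM) and the mural sum (498 CPM). Mouse 2 (CSDS saline) did for Col6a3 (8.90 CPM), Col11a1 (9.07 CPM) and the choroid plexus sum (18.3 CPM). In CSDS ketamine mice, mouse 3 was high for Col9a2 (12.6 CPM) and Col8a2 (2.42 CPM) and low for Col10a1 (0 CPM), and mouse 1 was high for Col5a2 (5.62 CPM). Choroid plexus sums of 34.9 CPM (mouse 34, CTRL ketamine) and 21.8 CPM (mouse 24, CTRL saline) also stood apart.

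In the vHipp, mouse 11 (CSDS ketamine) was high for Col19a1 (92.4 CPM), Col1a1 (14.0 CPM), the mural sum (478 CPM) and the interneuron sum (1436 CPM), and mouse 1 of the same group for Col22a1 (6.03 CPM). Mouse 4 (CSDS saline) was high for Col11a1 (46.0 CPM) and mouse 9 of that group for the choroid plexus sum (724 CPM). In CTRL ketamine mice, mouse 23 was high for Col11a1 (78.8 CPM) and Col6a1 (105.97 CPM), and mouse 32 for the interneuron sum (1223 CPM).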

How the results depend on the processing

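The number of collagens that differed between regions was 35 of 44 and lay between 35 and 37 under every alternative. With the mouse as a replicate block it was 36, with Col4a4 gained, and that fit changed no other call of a collagen. Col4a4 also passed with DESeq2, with filterByExpr and without the library of mouse 30, 11 or 9. Col4a3 passed without mouse 11 or 9, and Col9a3 without mouse 26. The difference of Col6a5 turned positive with RLE scaling (0.0041), DESeq2 (0.0037) and no filter (0.0067), and without mouse 30 (0.00034) or mouse 4 (0.0090), and ran from -0.033 to 0.0090 when 1 library was left out. The correlation of Col9a3 with choroid plexus markers in the vHipp was -0.047 without the 5 libraries. Of the 88 relations 28 to 37 passed under the alternatives, against 32.

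No stress or ketamine comparison gave an adjusted call in any fit, so only unadjusted collagen counts moved. For stress with saline in the vHipp the count of 1 became 0 with filterByExpr, 2 without a filter and 3 with only the groups compared (5.398%, 5.21% and 5.89% of all genes in those fits), and 0 to 2 when 1 library was left out. For ketamine in CTRL mice in the vHipp the count of 0 became 1 with DESeq2, 3 with only the groups compared and 1 without mouse 11 or 9 (2.02%, 2.98%, 3.10% and 2.88% of all genes). For ketamine in CSDS mice in the vHipp 2 became 1 with filterByExpr (1.53% of all genes). Leaving out 1 library gave 3 for stress with ketamine in the mPFC (mouse 26, from 5), 1 for ketamine in CTRL mice in the mPFC (mouse 30 or 26, from 3), 1 for stress with ketamine in the vHipp (mouse 11, from 0) and 3 for the interaction in the vHipp (mouse 4, from 1). Of all genes, 2.97% to 5.71% passed in these fits. In the mPFC, Col11a1 for the interaction and Col9a2 and Col22a1 for ketamine in CTRL mice no longer reached an unadjusted p of 0.05 without mouse 30 or without mouse 26. Without mouse 26 Col6a3 was also lost for ketamine in CTRL mice and Col10a1 was gained. The cause of these shifts was not tested. Depth limited Col10a1 and Col4a3, with median counts of 1 to 8 per library.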
